A study of Caenorhabditis elegans with 2 samples.

Results

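Epithelial junction genes were examined for binding of SPTF-1, a member of the Sp family of zinc-finger transcription factors, in Caenorhabditis elegans embryos. The 7 genes were ajm-1, dlg-1, hmp-1, hmr-1, jac-1, let-413 and vab-10, out of 19973 nuclear protein-coding genes in the annotation. They were chosen from the listed genes of apical junctions after peaks had been seen at ajm-1 and hmp-1, so the peak values at all members are a description and were not tested. Every summit in a member gene or within 2000 bp upstream of it was taken. This gave 13 of the 2430 summits in the thresholded list and 152 of the 30000 regions in the pooled list of both replicates. It gave 140 of 30000 in replicate 1 and 149 of 30000 in replicate 2. The lists of 30000 were deposited as peaks and background, so a region in them need not be a peak.

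The study was a chromatin immunoprecipitation and sequencing (ChIP-seq) experiment on whole organisms, with 1 group of 2 biological replicates. All embryos were of strain OP707, with genotype unc-119(tm4063) III; wgIs707, an integrated transgene that makes SPTF-1 with GFP and FLAG at its C-terminus. They were of mixed sex and mixed embryonic stage and were collected 2.5 hours after egg bleaching. There was no untagged or untreated group in the lists used here, so the only contrast was between the junction genes and the rest of the genome. The precipitating antibody is named as anti-GFP in the sample description and as sptf-1 in the antibody field, and the labels do not settle between them. Because whole embryos were used, a summit cannot be assigned to epithelial cells. Read depth is unknown, and the signal value is the score that the authors' peak caller gave each region.

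The apical junction of C. elegans epithelia is a belt in which adjacent cells adhere. It holds a cadherin-catenin complex, with the classical cadherin HMR-1, the alpha-catenin HMP-1, the beta-catenin HMP-2 and the p120 catenin JAC-1. Basal to that complex lie the coiled-coil protein AJM-1 and the Discs large homologue DLG-1, which bind each other. LET-413, a homologue of Scribble, is needed to place these complexes, and the spectraplakin VAB-10 links the epidermis to cuticle and muscle through fibrous organelles.

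Sequences at 5 of the genes are shown first, because they carry the features described later. These are a tRNA gene, GA repeats and the region before an annotated 5' end. Each is the plus strand of ce11 (WBcel235), taken from the RefSeq genome, and runs 5' to 3' with 100 bases on either side of the summit unless stated. In ajm-1 and let-413, capitals mark matches to GAGAGA, which lie on the minus strand in ajm-1. In the other ajm-1 window, capitals mark the tRNA gene H08J11.t3, which is transcribed from the minus strand.
ajm-1 at chrX:9102305-9102505: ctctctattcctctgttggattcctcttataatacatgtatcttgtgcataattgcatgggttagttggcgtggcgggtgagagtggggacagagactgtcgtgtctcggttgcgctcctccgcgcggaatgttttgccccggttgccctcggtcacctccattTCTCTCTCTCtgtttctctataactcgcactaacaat
ajm-1 at chrX:9091432-9091632: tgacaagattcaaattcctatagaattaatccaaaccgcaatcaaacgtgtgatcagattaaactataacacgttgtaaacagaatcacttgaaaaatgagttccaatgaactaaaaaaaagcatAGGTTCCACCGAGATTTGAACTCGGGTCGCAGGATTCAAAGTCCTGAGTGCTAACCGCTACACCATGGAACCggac
hmp-1 at chrV:11844858-11845058: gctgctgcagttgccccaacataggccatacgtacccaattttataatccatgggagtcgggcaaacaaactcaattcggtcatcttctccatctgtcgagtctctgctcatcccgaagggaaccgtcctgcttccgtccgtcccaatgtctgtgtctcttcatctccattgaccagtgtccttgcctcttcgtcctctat
let-413 at chrV:7978902-7979102: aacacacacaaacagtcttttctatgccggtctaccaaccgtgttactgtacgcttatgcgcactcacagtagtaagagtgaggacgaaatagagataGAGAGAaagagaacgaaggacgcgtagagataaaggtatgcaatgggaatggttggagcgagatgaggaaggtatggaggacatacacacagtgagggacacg
jac-1 at chrIV:16005725-16005924: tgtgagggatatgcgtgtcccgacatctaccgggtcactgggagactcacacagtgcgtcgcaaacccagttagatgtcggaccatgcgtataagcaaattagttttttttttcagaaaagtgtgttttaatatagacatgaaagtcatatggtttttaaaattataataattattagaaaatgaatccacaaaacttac
dlg-1 at chrX:5479550-5479699: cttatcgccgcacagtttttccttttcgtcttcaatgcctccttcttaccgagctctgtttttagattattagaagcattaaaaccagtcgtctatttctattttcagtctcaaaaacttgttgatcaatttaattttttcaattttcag
The jac-1 window is 200 bases long because its last base was left out where an exon began. The dlg-1 sequence is the 150 bases before the annotated 5' end, since that gene had no thresholded summit.

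Of the 7 junction genes, 6 had at least 1 thresholded summit, against 12.3% of all protein-coding genes. The choice of members used ajm-1 and hmp-1, so their share is not evidence about the list. Gene length moved with the count, and its part in the members' share was not tested. Members longer than 20 kb held a summit in 4 of 4 cases, against 41.9% of coding genes of that length. Among the shorter members 2 of 3 held a summit, against 12.1% of coding genes of up to 20 kb. The members covered 206 kb with their upstream regions and held 0.630 thresholded summits per 10 kb, or 0.481 without hmr-1, against 0.248 over all coding genes. Regions of the pooled list were also denser, at 7.36 per 10 kb at the members and 3.09 over all coding genes. Of the members' pooled regions 8.55% were in the thresholded list, against 8.07% of all nuclear pooled regions, so among the members' regions the thresholded ones were about as common as elsewhere.

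**Figure D1:**
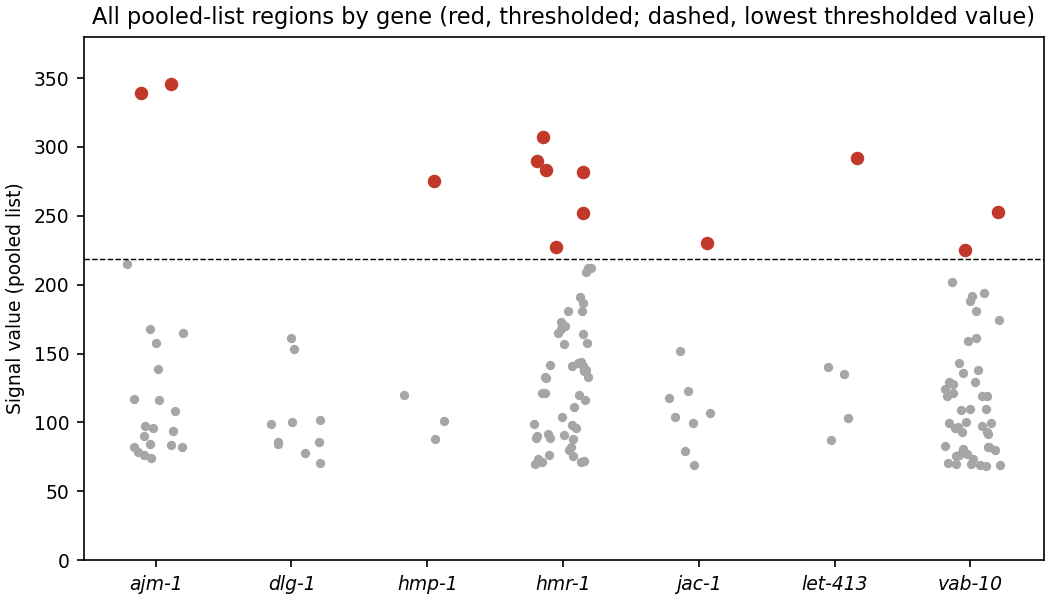
Signal value of the authors' pooled regions at each junction gene, in the authors' signal units, with thresholded regions in red and regions under the threshold in grey. The dashed line marks the lowest thresholded value, 219, and dlg-1 is the gene with no point above it.

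The cadherin gene hmr-1, at chrI:11075755-11134667 on the minus strand, had the most summits, 6, and only 4 coding genes in the genome held at least 6. It was also the longest member, at 58.9 kb. Per 10 kb it held 0.985 thresholded summits, below let-413 (1.49) and hmp-1 (1.21) and above the other members. The signal values of its 6 summits were 307, 290, 283, 282, 252 and 227, and all 6 lay in introns. The strongest overlapping regions of replicate 1 ranked 953, 1221, 1016, 988, 2476 and 3960. Those of replicate 2 ranked 1690, 1799, 3269, 2987, 1344 and 1829. Of the 6 sites, those at 11131429 and 11091399 overlapped regions among the 2430 strongest of both replicates, and each of the others did so in 1 replicate. For 11131429 the replicate 2 summit was 158 bp away, at 11131587. It was nearer to the pooled summit at 11131637, which was under the threshold (209) and overlapped the same replicate 2 region.

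The hmr-1 summits fell into clusters. The summits at 11131429 and 11132592 lay 3238 and 2075 bp inside the gene from the 5' end of the long transcript W02B9.1b.1, the form known from neurons. The other 4 lay around the internal 5' ends, with gaps of 4.2, 1.2 and 4.4 kb between neighbours, and 35.6 kb separated the clusters. Summit 11095808 lay 1282 bp upstream of the 5' end at 11094526, that of W02B9.1a.1 and W02B9.1a.2, the shorter cadherin known from epithelia. Summit 11091399 lay 3127 bp downstream of it. The summits at 11090235 and 11086025 lay 2403 bp upstream and 1807 bp downstream of the 5' end of W02B9.1d.1. At the short-form 5' end itself a pooled region under the threshold had its summit 24 bp downstream, with a signal value of 181 and rank 3896. That region ranked 10067 in replicate 1 and 1963 in replicate 2, so only replicate 2 had it among its strongest 2430 regions.

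**Figure D2:**
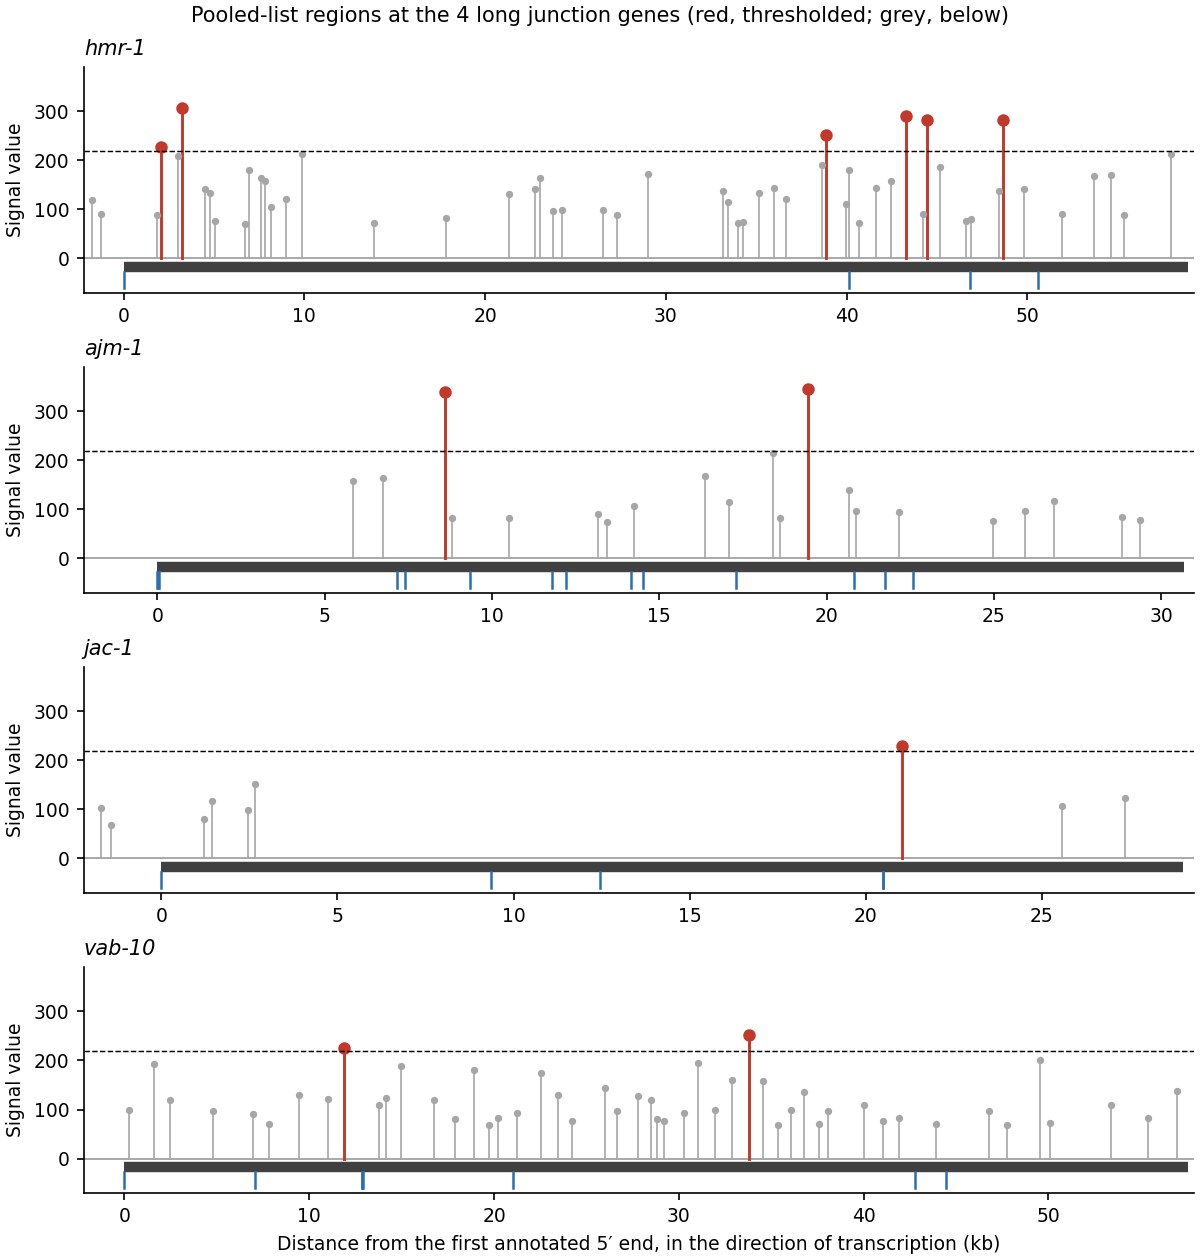
Maps of the 4 junction genes longer than 20 kb, with distance from the first annotated 5' end in kb on the x axis and the authors' signal value on the y axis. Red marks thresholded summits, grey marks weaker pooled ones and blue ticks mark annotated 5' ends; at hmr-1 the red points form groups 35.6 kb apart.

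The alpha-catenin gene hmp-1, at chrV:11845871-11852166 on the plus strand, had 1 thresholded summit, at 11844958, which lay 913 bp upstream of the first 5' end, that of R13H4.4d.1. Its pooled signal value was 275 and its pooled rank 1456, and the replicate values were 166 (rank 1334) and 109 (rank 2099). Replicate summits were 1 bp and 0 bp from the pooled one, so both replicates placed the site at the same position. The summit lay inside the minus-strand non-coding RNA gene R13H4.11, annotated from 11844719 to 11845217. The 5' end of nphp-4, the divergent neighbour, was 1230 bp away, so the site lay between the 5' ends and nearer to hmp-1. Of the 4 hmp-1 5' ends, 3 were within 1000 bp of the summit.

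The p120 catenin gene jac-1, at chrIV:15997835-16026847 on the minus strand, had 1 thresholded summit, at 16005825, with a signal value of 230 and pooled rank 2153. The replicate values were 134 (rank 2175) in replicate 1 and 105 (rank 2252) in replicate 2. It was the nearest of the 13 to a 5' end of its gene, at 532 bp downstream of that of Y105C5B.21h.1. The summit lay in an intron and inside 2 annotated non-coding RNA genes on opposite strands. At jac-1 the next region, in an intron at 16024177, had a signal value of 152 and rank 6145.

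The gene for AJM-1, the coiled-coil partner of DLG-1, lies at chrX:9082946-9113619 on the plus strand. It held the 2 strongest thresholded summits of the members. The site at 9102405 had a signal value of 346 and pooled rank 918. It had replicate values of 201 (rank 877) and 157 (rank 956), and lay in an intron 1357 bp before the 5' end of C25A11.4i.1. The site at 9091532 had a signal value of 339 and pooled rank 955, with replicate values of 153 (rank 1593) and 185 (rank 690). It lay 753 bp before the 5' end of C25A11.4k.1 and inside the plus-strand non-coding RNA gene H08J11.5, and the sites were 10.9 kb apart. At both sites the replicate ranks were all within the strongest 2430 regions.

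The site at 9091532 lay 25 bp from the tRNA gene H08J11.t3 and 151 bp from H08J11.t2, and was the only member summit within 200 bp of a tRNA gene, against 9.63% of all nuclear thresholded summits. This intron holds 5 glutamine tRNA genes of 72 bp, and 3 of them share a sequence that has 15 copies among 612 nuclear tRNA genes. Of the 15 copies, 6 had a thresholded summit within 200 bp. In the 201-bp window, 73.5% of 36-base words occurred once in the genome. In the other 12 member windows every word did, as in 81.3% of all nuclear thresholded windows. Without summits near tRNA genes, ajm-1 kept the site at 9102405 and the members kept 12 summits. The part of reads from the tRNA gene copies in this site was not tested.

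The gene for DLG-1, a membrane-associated guanylate kinase, was the member without a thresholded summit. It lies at chrX:5479700-5484941 on the plus strand and has 1 annotated 5' end. Its strongest region had its summit 37 bp upstream of that end, with a pooled signal value of 161 and rank 5241. The replicates did not place it alike, since the region ranked 2582 in replicate 1 with a signal value of 126 and 16350 in replicate 2 with 47.6. A region in a coding exon at 5481661 was next, at 153 and rank 5993. The gene therefore had weaker regions only, the strongest of them near its annotated 5' end, and all fell short of the threshold value of 219.

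The Scribble homologue let-413, at chrV:7973078-7977776 on the minus strand, had 1 thresholded summit, 1226 bp upstream of F26D11.11d.1, at 7979002. It had a signal value of 292 and pooled rank 1281. Replicate 1 gave it 194 (rank 938) and replicate 2 gave it 90.4 (rank 3321), so only replicate 1 placed it among the strongest 2430. The summits of the replicates were 5 bp and 3 bp from the pooled one. It was 2543 bp from the 5' end of the divergent neighbour, and a weaker region with a value of 135 and rank 8410 lay 141 bp before the let-413 5' end. Both replicates ranked that weaker region low, at 9852 and 11483.

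The spectraplakin gene vab-10, at chrI:11747424-11804991 on the minus strand, had 2 thresholded summits, at 11771205 and 11793088. The first had a signal value of 253 and lay in a coding exon, 9004 bp from the nearest 5' end. It ranked 1001 in replicate 1 and 10052 in replicate 2, the widest gap between replicates among the 13, and its window had 66.7% GC, the highest of the members. The second lay in an intron 963 bp before the 5' end of ZK1151.1e.1, with a signal value of 225. Its strongest overlapping region ranked 2840 in replicate 1 and 1487 in replicate 2. The replicate 1 summit was 187 bp away, and a nearer replicate 1 summit, at 11793107, ranked 4494. Neither vab-10 summit was in the strongest regions of both replicates.

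**Figure D3:**
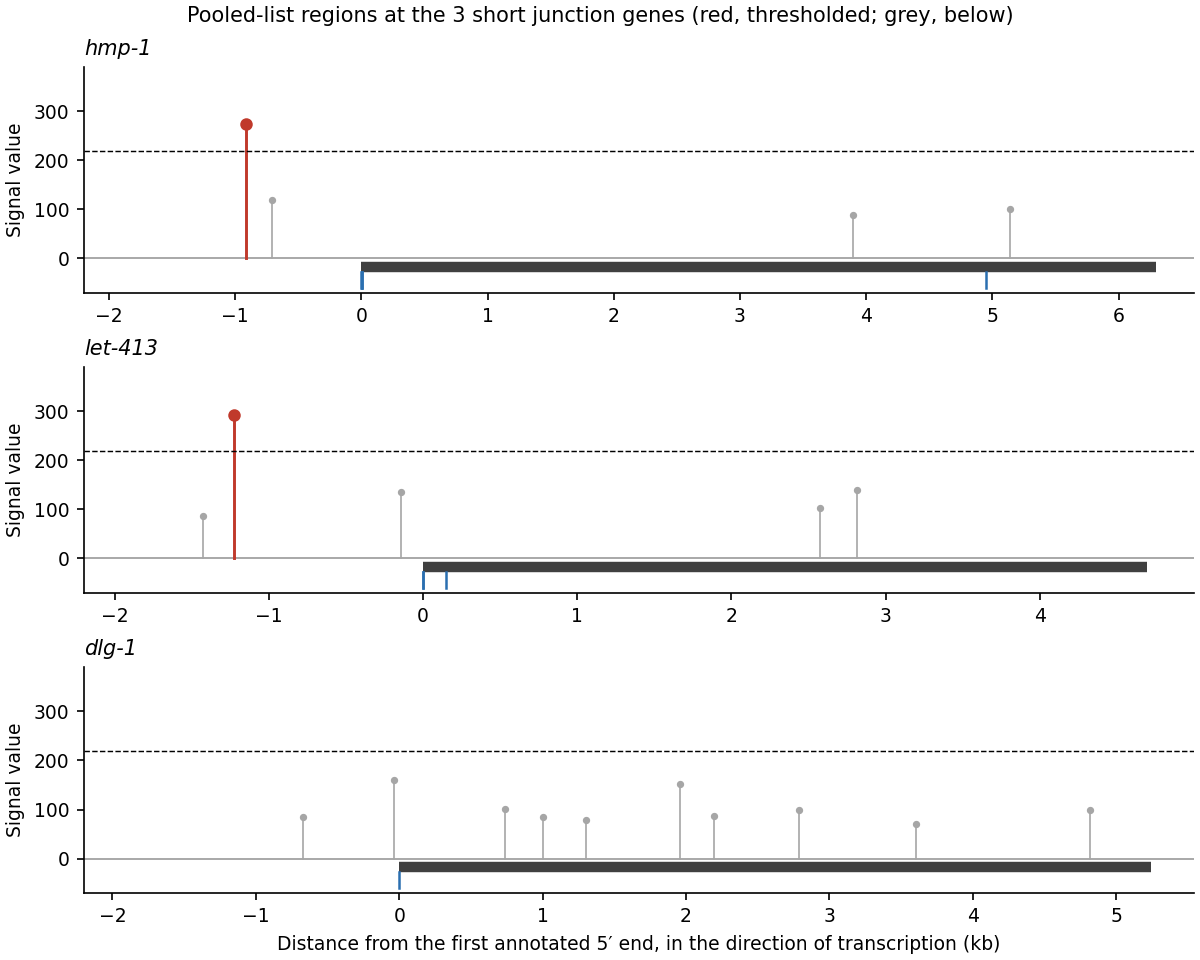
Maps of dlg-1, hmp-1 and let-413, with distance from the first annotated 5' end in kb on the x axis and the authors' signal value on the y axis. The thresholded summits of hmp-1 and let-413 lie upstream, at 913 and 1226 bp, and dlg-1 has weaker regions only.

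As a group, the 13 thresholded summits had signal values between 225 and 346 with a median of 282. The median of all nuclear thresholded summits was 299, the lowest 219 and the highest 3361. Their pooled ranks ran between 918 and 2265, and 3 of them, at ajm-1 and hmr-1, were in the stronger part of the list. The last members inside the threshold were vab-10 at 225 and hmr-1 at 227. The nearest outside it were ajm-1 at 9101344, at 215, and hmr-1 at 11124816 and 11076706, both at 212. The values on either side of the threshold were thus close.

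Introns held 10 of the 13 summits, against 29.1% of nuclear thresholded summits in introns of coding genes. Members longer than 20 kb held 11 of the 13, and the part of gene length in this share was not tested. A promoter window, 1000 bp upstream to 500 bp downstream of a coding 5' end, held 3 of the 13, against 55.1% of all nuclear thresholded summits. The 3 were at ajm-1, hmp-1 and vab-10. The median distance to the nearest coding 5' end was 1357 bp at the members and 670 bp over all. Of 39 annotated member 5' ends, 0 lay within 500 bp of a thresholded summit and 8 lay within 1000 bp of one. A pooled region lay within 500 bp of 17. Some ends shared a summit, such as 3 at hmp-1. The same shares were not counted over all coding 5' ends, so these counts have no background beside them. Over the whole pooled list, 102 of the 152 member regions lay in introns, 34 in coding exons, 11 upstream and 5 in untranslated exons.

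Replicates differed in how strongly they gave the sites. Both had 6 of the 13 among their strongest 2430 regions, against 69.8% of all nuclear thresholded summits. Replicate 1 had 10 and replicate 2 had 9. At the members, 9 sites ranked better in replicate 1 and 4 in replicate 2. Summits moved between lists by a median of 5.00 bp in replicate 1 and 16.0 bp in replicate 2, and by at most 187 and 158 bp. Taken alone, the strongest 2430 summits of replicate 1 lay at 6 of the 7 members, against 12.2% of all coding genes. Those of replicate 2 lay at 5 members, against 12.6% of all coding genes.

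**Figure D4:**
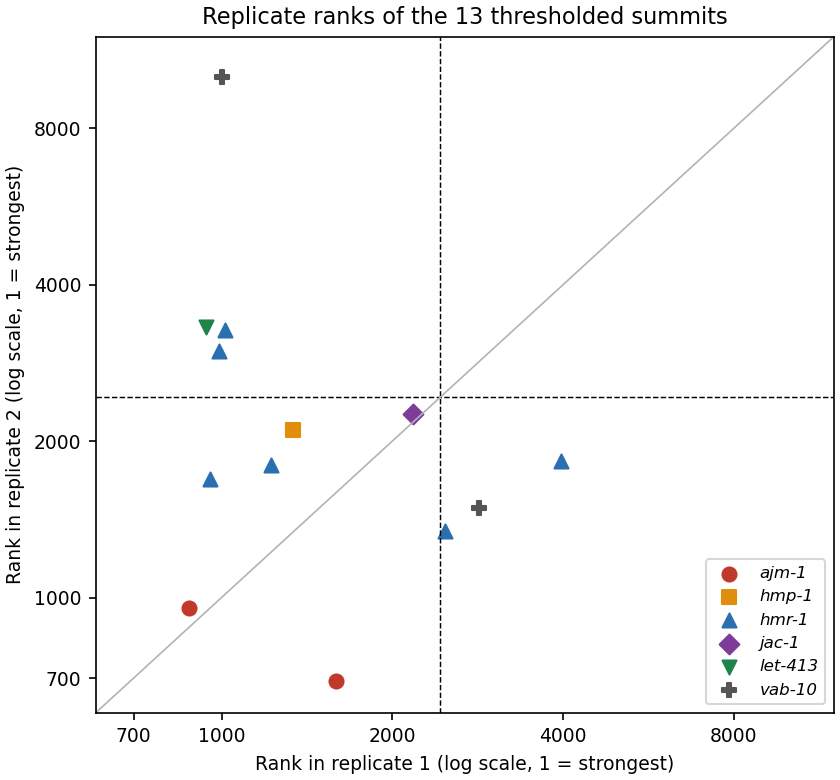
Rank in replicate 1 on the x axis and in replicate 2 on the y axis for the 13 thresholded summits of the junction genes, both on log scales. The ajm-1 site at 9102405 has the best rank in replicate 1, 877, and ranks 956 in replicate 2. The vab-10 exon site has 1001 and 10052.

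Regions under the threshold lay at every member. The pooled list held 54 regions at hmr-1, 49 at vab-10, 21 at ajm-1, 10 at dlg-1, 9 at jac-1, 5 at let-413 and 4 at hmp-1. Per 10 kb this was 13.8 at dlg-1, the highest of the members, and 2.90 at jac-1, the lowest. The gene with no thresholded summit was thus the one with the most pooled regions per 10 kb. The pooled list holds background as well as peaks, and the 10 regions at dlg-1 had −log10 q values between 0.191 and 0.963. Their density is therefore no measure of binding. The median signal value of a gene's pooled regions was 135 at hmr-1 and let-413, 110 at hmp-1, 107 at jac-1, 97.5 at ajm-1 and 92.6 at dlg-1, and that of vab-10 lay between those of jac-1 and ajm-1. The counts also differed between replicates at the catenin gene hmp-1, with 1 region in replicate 1 and 4 in replicate 2. At hmr-1 they were 50 and 59, at vab-10 51 and 44, at ajm-1 16 and 17, at jac-1 9 and 12, at dlg-1 9 and 8, and at let-413 4 and 5. Pooled regions lay within 500 bp of 7 of 14 annotated 5' ends of ajm-1, 3 of 8 of vab-10, 3 of 3 of let-413, 2 of 4 of hmr-1, 1 of 4 of hmp-1, 1 of 1 of dlg-1 and 0 of 5 of jac-1. No such share was counted over all coding genes.

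The windows were searched for words on both strands. GGGCGG, the core of the GC box bound by Sp factors, was in 2 of the 13 windows (15.4%), against 14.5% of all nuclear thresholded windows. Both were at hmr-1, at 11131429 and 11095808. The longer GGGGCGGG, which contains GGGCGG, was in 0 of 13, against 1.57%, and CCACGCCC was in 0 of 13, against 1.32%. The B box of tRNA promoters, searched as GGTTCGA followed after any 2 bases by CC, was in 0, against 6.45%. The tRNA gene H08J11.t3, which lies in an ajm-1 window, did not match this pattern. A count of 0 therefore does not show that a B box is absent. GAGAGA, chosen after the sequences were seen, was in 6 of 13 (46.2%), against 37.5%, and its matches in ajm-1 and let-413 are capitalised in the sequences. Promoters were searched from 250 bp before to 50 bp after the outermost annotated 5' end of each gene. GAGAGA was in 2 of 7 members and 21.8% of all coding genes, and GGGCGG in 0 of 7 and 7.87%. Promoters at internal 5' ends, such as that of the short hmr-1 transcripts, were not searched.

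Genes of 3 related lists were looked up in the same way, as a setting for the members. The lists held 35 genes, of which 34 were in the annotation. Their median length was 7.74 kb, against 2.03 kb for all coding genes. Of the 34 genes, 14 had 18 thresholded summits, against 12.3% of all coding genes. The related genes were thus longer than most, and the part of gene length in their share was not tested. The summits in the strongest regions of both replicates were 15 of 18, counting 2 at spc-1 that were matched to the same replicate regions. Among 14 cadherin-catenin and claudin associates, 5 had a summit. The beta-catenin gene hmp-2, the partner of HMP-1 and HMR-1, had a summit 1386 bp upstream with a signal value of 760 and pooled rank 205, above every member. The replicates ranked it 199 and 220, and the 5' end of K05C4.7, 206 bp away, was nearer to it. The claudin-like clc-2 (285) and the ZO-1 homologue zoo-1 (245) had summits 732 and 821 bp upstream. The L1CAM homologue sax-7 (414) and the MAGUK gene magu-2 (230) had them in introns.

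Among 12 apical polarity and cortex genes, 8 had a summit. The beta-spectrin gene unc-70 had 3, at 884, 397 and 301, and the strongest ranked 144. It lay in an intron 7014 bp downstream of the nearest annotated unc-70 5' end, and the 5' end of K11C4.2, 6086 bp away, was nearer to it. The alpha-spectrin gene spc-1 had 2 upstream, at 644 and 260, in the same replicate regions, which ranked 255 and 310. The Crumbs homologue crb-1 had 2, at 349 and 293, and eat-20, another Crumbs-like gene, had 1 at 280. The Par complex genes par-3 (255) and pkc-3 (242) had summits 250 and 46 bp upstream of a 5' end. The Numb homologue num-1 (359) and the Lgl homologue lgl-1 (233) had 1 each. Of 8 matched fibrous organelle genes only the intermediate filament gene ifa-3 had one, at 226, inside a tRNA gene. The other 20 matched genes had none, including par-6 and the ezrin homologue erm-1.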

How the data were processed

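SPTF-1 ChIP-seq peaks were taken from lists that the authors deposited for the ce11 build: 1 list of 30000 regions for each of 2 replicates, 1 pooled list of 30000 and 1 thresholded list of 2430. Each region has a signal value and a −log10 q value given by the authors. Signal values are scaled within each list, so replicates were compared by rank. The deposited listings call the thresholded list an optimal set by irreproducible discovery rate (IDR). They call the lists of 30000 peaks and background as input for IDR. The sources used here do not give the aligner, the caller, the IDR cutoff or the read depth. The ce10 lists were not used here. Of the 2430 thresholded peaks, 2419 were nuclear and 1725 shared the highest −log10 q, as did 8 of the 13 member summits.

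Genes and 5' ends came from Ensembl release 115 of WBcel235, and sequence from the RefSeq genome of that build. The 5' ends were used as annotated and were not checked to be transcription starts, so a promoter here is defined by the annotation alone. A summit belonged to a gene when it lay in it or within 2000 bp upstream. A peak took the strongest replicate region that overlapped its interval by at least 1 base. Windows were 201 bp. Python 3.11.15, NumPy 2.4.6 and matplotlib 3.10.9 were used. The rules that place a position relative to a gene were checked on planted positions upstream of genes and in exons. The matching of replicates and the word search were not checked in this way. All 7 members were named, with the related genes that had a thresholded summit, the tRNA genes within 200 bp of a member summit and any coding gene with a 5' end nearer to a member summit than the member's own, of which there was none. The members and lists were chosen with earlier results of these data known, and no test was made of them. Motifs other than GAGAGA and the alternatives (upstream distance, interval overlap, both replicates, each replicate alone, a stricter signal, tRNA genes and nearest 5' end) were listed for this work with those results known.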

Additional observations from a re-analysis of the deposited data

How the results depend on the processing

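The members with a thresholded summit (6), their summits (13) and the related genes with one (14) were recounted under 11 alternatives each, and stayed within 1.5 times the value in 10, 9 and 8 of them. With the stronger part of the list by signal, the members numbered 2, their summits 3 and the related genes 6, with 7.08% of all coding genes in place of 12.3%. With a place in the strongest regions of both replicates required, the summits numbered 6, and let-413 and vab-10 lost theirs, with 9.24% of all coding genes. With 500 bp upstream the related genes numbered 9, with 8.56% of all coding genes, and with the gene body alone 7, with 3.63%. With 500 bp or less, hmp-1 and let-413 had no summit, and with 1000 bp let-413 had none. Leaving out each replicate in turn gave 5 to 6 members, 10 to 12 summits and 14 to 14 related genes. Without replicate 1, let-413 was lost. No paired analysis was possible because there was 1 group. Read depth is unknown, so the precision of a signal value cannot be given, and with 2 replicates ranks were the only measure of spread.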

Other observations

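Regions that were strong in 1 replicate only also lay at the junction genes. Replicate 1 had 12 of its strongest 2430 summits at 6 members, and 10 of them lay within 200 bp of a thresholded summit. The others were in introns, at ajm-1 (9099334, signal value 134, rank 2171) and at vab-10 (11786095, 150, rank 1661), and the vab-10 region overlapped no region of replicate 2. Replicate 2 had 10 at 5 members, and 9 of them lay that near. The other was at hmr-1, at 11094504 with a signal value of 112 and rank 1963, 22 bp downstream of the 5' end of the short transcripts.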
